A study of Mus musculus with 12 samples.

Results

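The clustered histone genes encode the linker histone H1 and the core histones H2A, H2B, H3 and H4, and lie in 4 groups in the mouse genome, named Hist1 to Hist4 in the older nomenclature. Rows were taken as members where the symbol begins with Hist1h, Hist2h, Hist3h or Hist4h, which held for 9 of the 55487 rows of each table. A further 61 rows carry a newer symbol (H1f2 for Hist1h1c, for example) whose older symbol in the RefSeq gene table meets the same rule, and all 70 are described here. They comprise 6 genes of H1, 20 of H2A, 19 of H2B, 12 of H3 and 13 of H4, with 56 in the Hist1 group on chromosome 13, 10 in Hist2 on chromosome 3, 3 in Hist3 on chromosome 11 and 1 in Hist4 on chromosome 6. Of them, 67 are annotated as protein-coding and 3 as pseudogenes.

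Most mRNAs of these genes are made during DNA replication and have no poly(A) tail. They end just after a conserved stem-loop that is bound by the stem-loop binding protein Slbp, and the U7 small nuclear ribonucleoprotein directs the cut. Some of the genes also yield polyadenylated mRNA from a site farther downstream, and such forms are known from differentiating and resting cells of several species. A library made from polyadenylated RNA therefore holds mainly these longer forms, and its values are not the total histone mRNA of a cell.

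G1E-ER4, the line used, is an erythroid progenitor line of the mouse without a functional Gata1 gene of its own, in which GATA1 fused to an estrogen receptor domain starts red cell maturation when estradiol is given. Every culture received 100 nM β-estradiol and was collected after 24 h, in 4 groups of 3 libraries. One group received 50 µM DTPA, a metal chelator used to make the cells zinc-deficient. Another received 50 µM DFO, an iron chelator, and another 0.2 mM SA, used to block the heme synthesis enzyme ALAD. The control group received estradiol alone. For the ALAD group the protocol text names DFO and the sample titles name SA, and the titles were followed. The kit named in the labels makes stranded libraries from mRNA captured by its poly(A) tail. The labels call the 3 libraries of a group biological replicates. Each p-value sets a difference between group means against the spread among such replicates, estimated from all 12 libraries together.

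Each library held between 19866081 and 24345824 reads on genes, recovered from the spacing of the TPM values (a level scaled for gene length and library total), and for a gene with 1 kilobase of exons a single read amounted to 0.124 to 0.160 TPM. All 10 erythroid marker genes averaged at least 1 TPM, as did 4 of 7 megakaryocyte markers, 0 of 8 mast and myeloid markers and 0 of 6 lymphoid markers. The summed level of the megakaryocyte list was 36.5 to 45.8 TPM with DTPA, 10.3 to 10.9 TPM with DFO, 8.27 to 9.87 TPM with SA and 8.23 to 9.34 TPM in control. Of its 4 tested genes, Gp1ba, Gp9 and Itgb3 rose with DTPA (median log2 fold change of the 4, 1.32). The listed genes Pf4, Ppbp and Vwf averaged under 1 TPM. Of the erythroid markers, 1 rose and 7 fell with DTPA (median -0.39), 1 rose and 4 fell with DFO, and 1 rose and 6 fell with SA. Among all tested genes, 23.5 percent were called higher and 42.1 percent lower with DTPA. These shares were 8.39 and 2.28 percent with DFO, and 15.4 and 6.75 percent with SA. The mast and myeloid list summed to 2.60 to 3.54 TPM with DTPA, 0.698 to 0.931 TPM with DFO, 0.748 to 1.03 TPM with SA and 0.352 to 0.420 TPM in control, with 4 of its genes listed at 0 in all libraries. The lymphoid list summed to 2.45 to 3.42 TPM with DTPA, 0.567 to 1.28 TPM with DFO, 0.715 to 1.35 TPM with SA and 0.442 to 0.843 TPM in control, with 3 genes at 0. The part of these lists in the histone values was not tested.

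The stem-loop is shown for the genes whose values are described below, since it marks where the form without a tail ends. It was found in an annotated GENCODE M21 transcript of 46 of the 70 genes. The same search found it in 58 of 21951 protein-coding genes (0.264%), 46 of them clustered histone genes. The most frequent form, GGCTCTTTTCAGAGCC, occurred in 26 of the 46. In the lines below (mm10, 5′ to 3′, as DNA), capitals mark the stem and loop.
H1f2, chr13:23739505-23739534, plus strand: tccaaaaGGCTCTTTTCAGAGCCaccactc
H1f4, chr13:23621775-23621804, minus strand: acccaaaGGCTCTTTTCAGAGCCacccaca
H2aw, chr11:58955165-58955194, plus strand: caccaaaGGCTCTTTTCAGAGCCacccaca
H2bc8, chr13:23571836-23571865, plus strand: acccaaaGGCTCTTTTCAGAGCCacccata
H3c4, chr13:23576237-23576266, plus strand: ccccaaaGGCTCTTTTCAGAGCCacccccg
H4c9, chr13:22040959-22040988, minus strand: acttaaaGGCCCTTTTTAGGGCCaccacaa
H3c1, chr13:23761883-23761912, minus strand: aaccaaaGGCTCTTTTCAGAGCCacacacg
H3c3, chr13:23745040-23745069, minus strand: aaaaaaaGGCTCTTTTAAGAGCCacctaag
Hist1h2bp, chr13:21787916-21787945, plus strand: acacaaaGGCTCTTTTCAGAGCCacccaca

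H1f2, H1f4, H2aw and H2bc8 share 1 stem-loop with H3c4, H3c1 and Hist1h2bp, while H3c3 and H4c9 carry other forms of it. What differs more is the annotated sequence after it. In H1f2 the transcript runs on for 840 bases past the stem-loop, in H1f4 for 1153, in H2aw for 1643, in H2bc8 for 155, in H3c4 for 752 and in H4c9 for 330. In H3c1 it ends 37 bases on, in H3c3 74 and in Hist1h2bp 38. Hist1h2bp has a second, spliced transcript without the stem-loop, which ends at chr13:21789213 with AATAAA in its last 50 bases. Of the 46 genes, 23 have more than 100 bases after the stem-loop and 23 have 100 or fewer. The signal for cleavage and polyadenylation, with AATAAA as its usual form (its variant ATTAAA was also searched), lies within the last 50 bases of a transcript of 12 of the 23 genes with a long tail and of 2 of the 23 with a short one. It is shown for H1f2, H4c9 and H2aw, in capitals.
H1f2, chr13:23740340-23740367, plus strand: ctAATAAAaagcgtttagttttcattca
H4c9, chr13:22040636-22040658, minus strand: acATTAAAagtattctatgctaa
H2aw, chr11:58956795-58956822, plus strand: ccAATAAAataagagtacgtgtataaca

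The other 24 genes have no stem-loop in an annotated transcript. For 17 of these the exon length is a multiple of 3, as in models that hold the coding sequence alone, so a missing stem-loop there says nothing of the gene. H2bc4, the H2B gene with the highest level, belongs to the 24: its annotated transcript is spliced and spans chr13:23684199-23692908.

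Levels were low outside a few genes. Over all 12 libraries, 6 of the 70 genes were listed at 0, 45 averaged under 1 TPM (these 6 among them), 25 averaged at least 1 TPM and 7 averaged at least 5 TPM. These 7 were H1f2, H2bc4, H4c9, Hist1h2al, H3c4, H2bc8 and H2aw, and each histone type is represented among them. For 30 genes, all libraries together held under 20 reads. Of the 70, 34 reached 1 TPM in at least 3 libraries and were tested: 5 of H1, 5 of H2A, 12 of H2B, 6 of H3 and 6 of H4. H1f3 passed only through the SA libraries, and H2ac7 would not have passed without the DTPA libraries. Coding sequences of these genes are near copies of one another, and a median of 49.6% of the 50-base stretches of a gene also occur in another gene. For 34 genes that share exceeds 50%, so their reads could be assigned to a relative, depending on a counting setting that the sources used here do not give.

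**Figure D1:**
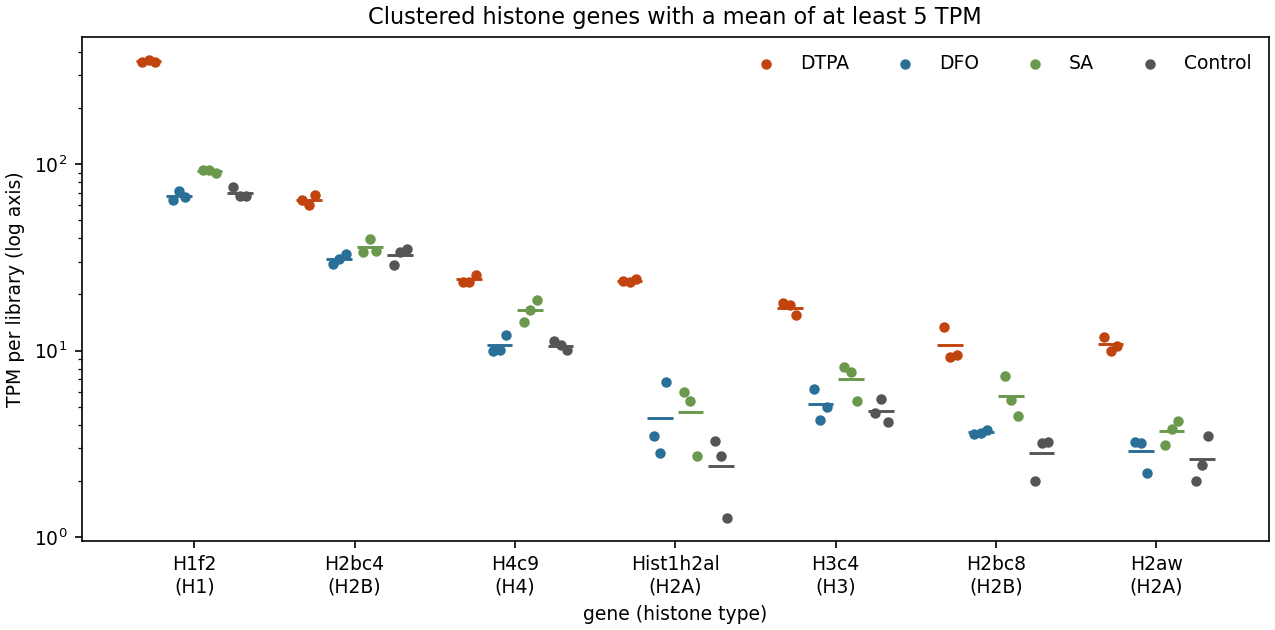
TPM in each of the 12 libraries (log axis) for the 7 clustered histone genes that averaged at least 5 TPM, ordered by level, with group means as bars. In all 7 the 3 DTPA libraries lie above every other library, and the DFO and control libraries overlap except in H2bc8, where DFO is higher.

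The summed level of the 70 genes was 548, 549.5 and 544 TPM with DTPA, 162, 174 and 171 TPM with DFO, 219, 224 and 208 TPM with SA and 175, 169.8 and 171 TPM in control. The DTPA libraries lay far above all others, the SA libraries lay above control without overlap, and the DFO and control libraries overlapped. The means were 547 ± 2.74 TPM with DTPA (3.18 times control), 169 ± 6.05 TPM with DFO (0.983 times), 217 ± 8.41 TPM with SA (1.26 times) and 172 ± 2.67 TPM in control (SD, n = 3 each). H1f2 alone held most of the DTPA sum. Without it the sum averaged 191 ± 4.78 TPM with DTPA, 101 ± 3.3 TPM with DFO, 125 ± 6.21 TPM with SA and 102 ± 2.11 TPM in control, and DTPA stood at 1.88 times control.

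By type, the H1 sum averaged 362 ± 6.66 TPM with DTPA against 75.8 ± 4.92 TPM in control (4.78 times), but 1.13 times without H1f2. The H2A sum averaged 41.8 ± 2.44 TPM with DTPA against 10.6 ± 1.31 TPM in control (3.94 times). Within it, Hist1h2al, annotated as a processed pseudogene, averaged 23.7 TPM with DTPA and 2.41 TPM in control. For H2B the sums were 91.9 ± 2.55 TPM with DTPA and 53.7 ± 4.22 TPM in control (1.71 times). For H3 they were 20.9 ± 0.893 TPM with DTPA and 13.5 ± 1.04 TPM in control (1.55 times). For H4 they were 30.4 ± 0.842 TPM with DTPA and 18.3 ± 1.82 TPM in control (1.66 times). In each type the DTPA libraries lay above all control libraries. With H1f2 included, H1 genes held 66.2% of the family's TPM with DTPA, against 44.1% in control. In bulk RNA, a change in the number of cells of a type and a change in RNA per cell cannot be told apart.

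**Figure D2:**
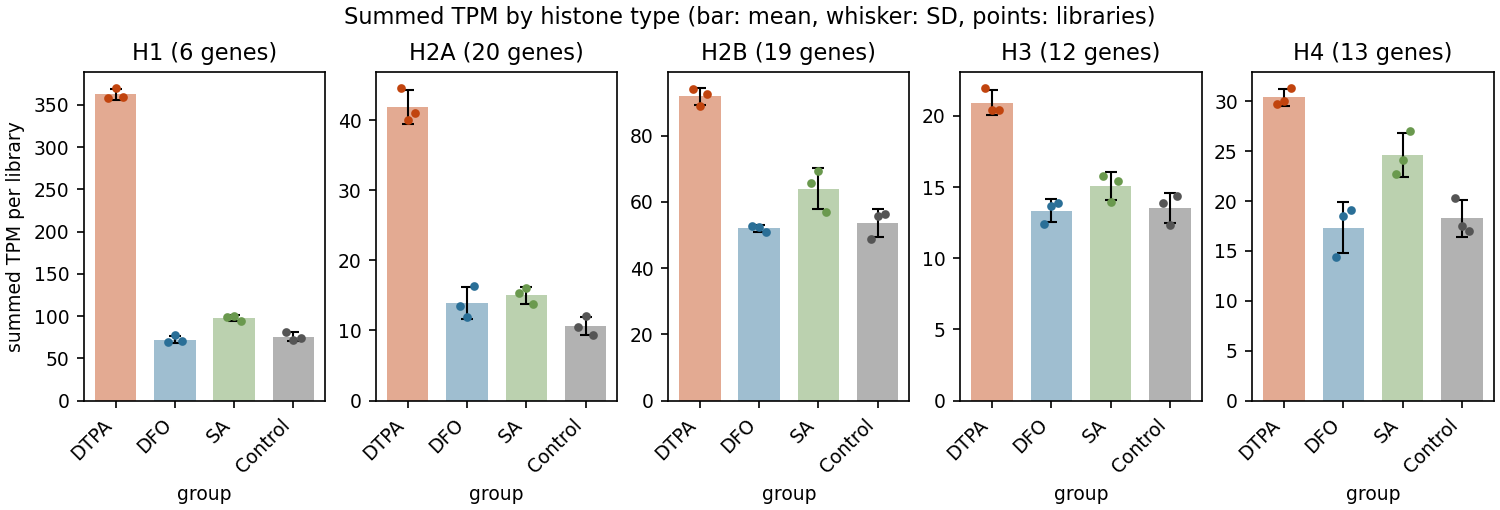
Summed TPM per library by histone type, with bars for the mean, whiskers for the SD and points for the 3 libraries of each group. DTPA is highest in each panel, with H1 at a mean of 362 TPM against 75.8 TPM in control, and the SA mean lies between those of DTPA and control.

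With DTPA, 12 of the 34 tested genes rose and 3 fell against control, and 19 did not pass the test (limma on log2(TPM + 1), Benjamini-Hochberg adjusted p under 0.05). That is 35.3% higher and 8.82% lower. Among all 11917 genes tested, 23.5 percent were called higher and 42.1 percent lower. The median log2 fold change was 0.01 over the 34 and -0.11 over all tested genes. Scaling the libraries by the median of ratios brought that median over all genes to within 0.01 of 0 and gave 3784 higher and 3940 lower in place of 2796 and 5014, while the family's counts stayed at 12 and 3. Rises were 2 of 5 tested H1 genes, 4 of 5 H2A, 3 of 12 H2B, 1 of 6 H3 and 2 of 6 H4. Falls were 1 H2B and 2 H3 genes. Limma's voom on the recovered reads, which tested 17 of the members, called 9 of the 12 higher and Hist1h2bp lower. It did not test the remaining rises (H2ac7, H2bc18 and H4c8) or falls (H3c1 and H3c3), whose reads were too few.

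H1f2 encodes the linker histone H1.2, which binds DNA where it enters and leaves the nucleosome. It lies at chr13:23738808-23740367 on the plus strand (ENSMUSG00000036181.2, mm10) and had 352, 363 and 353 TPM with DTPA, 64.3, 71.9 and 66.7 TPM with DFO, 93.1, 93.5 and 89.3 TPM with SA and 75.7, 67.5 and 67.9 TPM in control. The DTPA libraries lay far above the rest, the SA libraries lay above control without overlap, and DFO overlapped control. The DTPA mean was 5.06 times that of control, with a log2 fold change of 2.33 (SE 0.05, limma, adjusted p = 3.51e-12). This gene had 3914, 4585 and 4425 reads with DTPA and 857, 802 and 740 reads in control, the most in the family. Only 8.54% of its 50-base stretches occur in another gene.

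H1f4, encoding the linker histone H1.4, had 3.86, 4.93 and 3.55 TPM with DTPA, 1.53, 1.99 and 2.18 TPM with DFO, 1.36, 1.6 and 1.19 TPM with SA and 1.43, 1.09 and 1.78 TPM in control. The DTPA libraries lay above all others and the remaining groups overlapped. Its log2 fold change with DTPA was 1.07 (SE 0.15, limma, adjusted p = 5.79e-05). Its annotated exons overlap those of H2bc6 on the same strand, and H2bc6 had 3.19, 3.06 and 2.94 TPM with DTPA and 3.1, 2.63 and 2.83 TPM in control libraries, with a log2 fold change of 0.08 (SE 0.10, limma, adjusted p = 0.532). The other linker genes named by level had few reads: H1f5 averaged 0.697 ± 0.0512 TPM with DTPA and 1.79 ± 0.798 TPM in control (-0.68 log2, SE 0.29, adjusted p = 0.061), and H1f1 averaged 0.796 ± 0.40 TPM with DTPA and 1.42 ± 0.705 TPM in control (adjusted p = 0.232, SD, n = 3 each). Neither passed the test, although H1f5 was called lower without DFO replicate 3 (-0.68, adjusted p = 0.0231) or control replicate 1 (-0.92, adjusted p = 0.0189).

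The promoters of H1f2 and H1f4 are shown because these are the linker genes that rose. Each line gives the 250 bases before the RefSeq start (GRCm38.p6, 5′ to 3′), with the searched motifs in capitals.
H1f2, chr13:23738557-23738806, plus strand: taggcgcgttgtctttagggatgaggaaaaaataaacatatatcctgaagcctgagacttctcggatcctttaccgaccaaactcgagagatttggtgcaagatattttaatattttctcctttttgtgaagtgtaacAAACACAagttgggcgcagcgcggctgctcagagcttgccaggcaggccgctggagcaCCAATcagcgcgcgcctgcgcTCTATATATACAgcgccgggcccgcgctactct
H1f4, chr13:23622559-23622808, minus strand: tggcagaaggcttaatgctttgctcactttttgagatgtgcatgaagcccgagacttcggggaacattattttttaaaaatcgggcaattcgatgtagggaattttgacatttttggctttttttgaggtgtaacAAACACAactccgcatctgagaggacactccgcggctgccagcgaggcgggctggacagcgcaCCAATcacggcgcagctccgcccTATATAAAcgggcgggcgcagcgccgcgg
The motifs were searched on both strands in the RefSeq promoters (250 bases before to 50 after the start), of which 55 belong to 54 of the 70 genes. They were the CCAAT box, a shortened TATA box written TATANA, the element AAACACA known from H1 promoters, and the octamer ATTTGCAT known from H2B promoters. Overlapping matches were allowed. AAACACA was in 5 of 6 H1 promoters (83.3%) and in 7.18% of all 32851 promoters. CCAAT was in 48 of the 55 (87.3%) and in 37.4% of all. By type, it was in every H1, H2A, H2B and H3 promoter but in 3 of 10 H4 promoters (30%). TATANA was in 42 of the 55 (76.4%) and in 24.7% of all. ATTTGCAT was in 7 of 14 H2B promoters (50%) and in 7 of 15 H2A promoters (46.7%). It was in 0 of the H1, H3 and H4 promoters and in 1.74% of all. Both lines hold the H1 element, the CCAAT box and the TATA box. A match is a description of these letters, not of binding.

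Among the H2A genes, Hist1h2al had the largest rise by log2 of any member with DTPA. It had 23.6, 23.3 and 24.2 TPM with DTPA, 3.48, 2.83 and 6.8 TPM with DFO, 6.02, 5.37 and 2.71 TPM with SA and 3.25, 2.71 and 1.27 TPM in control. The DTPA libraries lay within a narrow range far above the others, which overlapped one another. The log2 fold change was 2.91 (SE 0.31, limma, adjusted p = 5.30e-06), and the control value rests on 8, 7 and 3 reads, against 57, 64 and 66 with DTPA. The locus, chr13:51202727-51203065 on the minus strand, lies outside the main Hist1 group and is annotated as a processed pseudogene in M21, and 67.6% of its 50-base stretches occur in another gene. Reads within those stretches cannot be told from reads of a relative.

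H2aw (Hist3h2a, chr11:58954685-58956830, plus strand) encodes a core H2A and had 11.8, 9.9 and 10.6 TPM with DTPA, 3.23, 3.21 and 2.21 TPM with DFO, 3.12, 3.79 and 4.2 TPM with SA and 1.99, 2.45 and 3.47 TPM in control. The DTPA libraries lay above all others, and the other 3 groups overlapped. The log2 fold change with DTPA was 1.71 (SE 0.16, limma, adjusted p = 1.64e-06). The neighbouring Trim17, whose exons overlap on the same strand, stayed at or under 0.246 TPM in each library. H2ac6 had 2.04, 2.04 and 1.86 TPM with DTPA and 1.11, 1.11 and 1.04 TPM in control libraries, a log2 fold change of 0.51 (SE 0.20, limma, adjusted p = 0.0398). The call was lost in 9 of 20 alternatives, among them those without any 1 of the DTPA or control libraries and without DFO replicate 1, with adjusted p up to 0.0923. H2ac7, with 8, 5 and 9 reads with DTPA and 0, 0 and 3 in control, had a log2 fold change of 1.13 (SE 0.30, limma, adjusted p = 0.00639). Outside the DTPA libraries it reached 1 TPM only in DFO replicate 1 and SA replicate 3, so its call was favoured by the filter.

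H2bc4 (Hist1h2bc), a core H2B gene, had the second highest level of the family, with 64.2, 60.7 and 68.5 TPM with DTPA, 29.1, 31.1 and 32.8 TPM with DFO, 33.6, 39.7 and 34.4 TPM with SA and 28.9, 33.7 and 35.1 TPM in control. The DTPA libraries lay above all others, and DFO and SA each overlapped control. The mean with DTPA was 1.98 times control, with a log2 fold change of 0.97 (SE 0.08, limma, adjusted p = 7.43e-07). H2bc8 (Hist1h2bg) had 13.4, 9.2 and 9.46 TPM with DTPA, 3.58, 3.62 and 3.73 TPM with DFO, 7.31, 5.44 and 4.45 TPM with SA and 2.01, 3.19 and 3.24 TPM in control. Here the DTPA libraries were highest, and the SA and DFO libraries lay above control without overlap. The log2 fold change with DTPA was 1.62 (SE 0.18, limma, adjusted p = 9.04e-06). H2bc18 averaged 1.7 ± 0.657 TPM with DTPA and 0.601 ± 0.209 TPM in control (SD, n = 3 each). Its log2 fold change was 0.73 (SE 0.30, limma, adjusted p = 0.0481), and 53.6% of its 50-base stretches occur in another gene. Other H2B genes of similar level gave no call: H2bc21 had 2.04, 2.22 and 1.57 TPM with DTPA and 2.1, 2.41 and 3.06 TPM in control libraries (adjusted p = 0.219), and H2bc9 had 1.67, 2.28 and 2.15 TPM with DTPA and 2.14, 2.35 and 1.7 TPM in control libraries (adjusted p = 0.951).

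H3c4 (Hist1h3d) was the highest H3 gene, with 18, 17.5 and 15.4 TPM with DTPA, 6.25, 4.23 and 4.99 TPM with DFO, 8.16, 7.63 and 5.39 TPM with SA and 4.64, 5.47 and 4.12 TPM in control. Its DTPA libraries lay above all others, and its log2 fold change was 1.65 (SE 0.15, limma, adjusted p = 1.52e-06). The other H3 genes were between a mean of 0 and 1.62 TPM. H3c1 had 0.263, 0.231 and 0 TPM with DTPA and 2.07, 1.23 and 2.41 TPM in control libraries, and fell by 1.30 on the log2 scale (SE 0.28, limma, adjusted p = 0.00142). H3c3 had 0.892, 0.392 and 0.395 TPM with DTPA and 3.06, 1.88 and 1.59 TPM in control libraries, and fell by 1.01 on the log2 scale (SE 0.26, limma, adjusted p = 0.00508). In neither gene did the DTPA and control libraries overlap, but the reads were few, at 1, 1 and 0 with DTPA and 8, 5 and 9 in control for H3c1, and 4, 2 and 2 with DTPA and 14, 9 and 7 in control for H3c3. H3c8 and H3c11 did not pass the test, with log2 fold changes of -0.52 and -0.77 (adjusted p = 0.238 and 0.118), although H3c11 was called lower without DTPA replicate 3 (-1.14, adjusted p = 0.0281). Besides these, a fall was called for the H2B gene Hist1h2bp, which had 0.597, 0.875 and 0.176 TPM with DTPA and 2.34, 2.42 and 1.62 TPM in control libraries, a log2 fold change of -1.03 (SE 0.22, limma, adjusted p = 0.00138).

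H4c9 (Hist1h4i), the highest H4 gene, had 23.4, 23.5 and 25.3 TPM with DTPA, 9.93, 10.1 and 12.1 TPM with DFO, 14.2, 16.6 and 18.7 TPM with SA and 11.2, 10.7 and 10.0 TPM in control. DTPA was highest, SA lay between DTPA and control without overlapping either, and DFO overlapped control. The log2 fold change with DTPA was 1.11 (SE 0.09, limma, adjusted p = 7.55e-07). H4c8 had 2.09, 4.21 and 1.85 TPM with DTPA and 1.76, 0.838 and 0.913 TPM in control libraries, and a log2 fold change of 0.75 (SE 0.24, limma, adjusted p = 0.017). That call was lost without DTPA replicate 2 (0.48, adjusted p = 0.0765), without control replicate 2 (0.64, adjusted p = 0.062) and without control replicate 3 (0.67, adjusted p = 0.0563). H4c4 had 1.48, 0.109 and 0.656 TPM with DTPA and 0.969, 1.04 and 1.26 TPM in control libraries, with no call (adjusted p = 0.34).

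**Figure D3:**
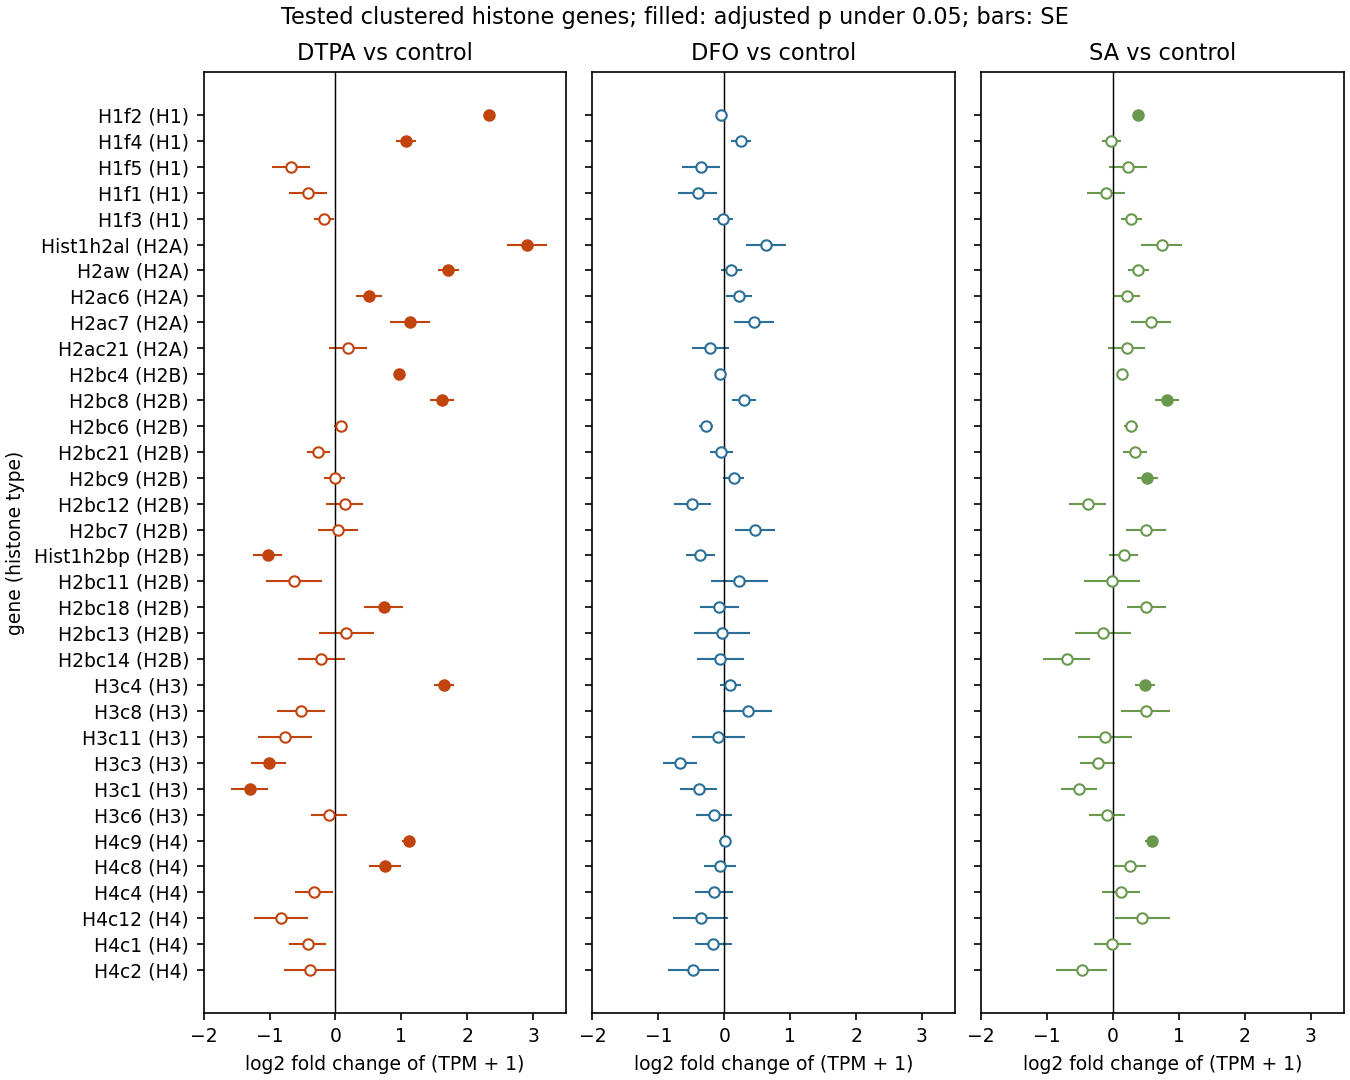
Log2 fold changes of (TPM + 1) against control for the 34 tested genes, by type and level, with SE bars and filled points where the limma adjusted p was under 0.05. The DTPA panel holds 12 filled points above 0 and 3 below, the DFO panel none and the SA panel 5 above 0.

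The calls with DTPA fell unevenly over the annotated tails. The split at 100 bases was chosen after the values were seen, so what follows is a description without a test. Of 13 tested genes with more than 100 bases after the stem-loop, 7 rose and 0 fell, at a median of 0.51 on the log2 scale. Of 11 tested genes with 100 bases or fewer, 2 rose (18.2%) and 3 fell (27.3%), with a median of -0.38. One of these 3, Hist1h2bp, also has the longer spliced transcript without the stem-loop. Of 10 tested genes with no annotated stem-loop, 3 rose and 0 fell. Over all tested genes, 23.5 percent were called higher and 42.1 percent lower with DTPA. The share of falls among the short-tail genes was thus below that over all genes. Summed over all members of a class, the long-tail genes held 437, 439.9 and 429 TPM with DTPA and 111, 102 and 101 TPM in the control libraries (4.16 times, or 2.31 times without H1f2). The short-tail genes held 13, 14.4 and 12.5 TPM with DTPA and 19.8, 16.5 and 18.4 TPM in the control libraries (0.730 times). The genes with no annotated stem-loop averaged 98.7 TPM with DTPA and 49.1 TPM in control (2.01 times). The long-tail libraries with DTPA lay above all controls, and the short-tail libraries with DTPA lay below them. The short-tail sum rests on 48, 58 and 50 reads with DTPA and 76, 67 and 68 reads in control. Genes with exons over 1000 bases summed to 3.77 times control with DTPA, and those with exons up to 1000 bases to 1.70 times. The part of length in this pattern was not tested.

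**Figure D4:**
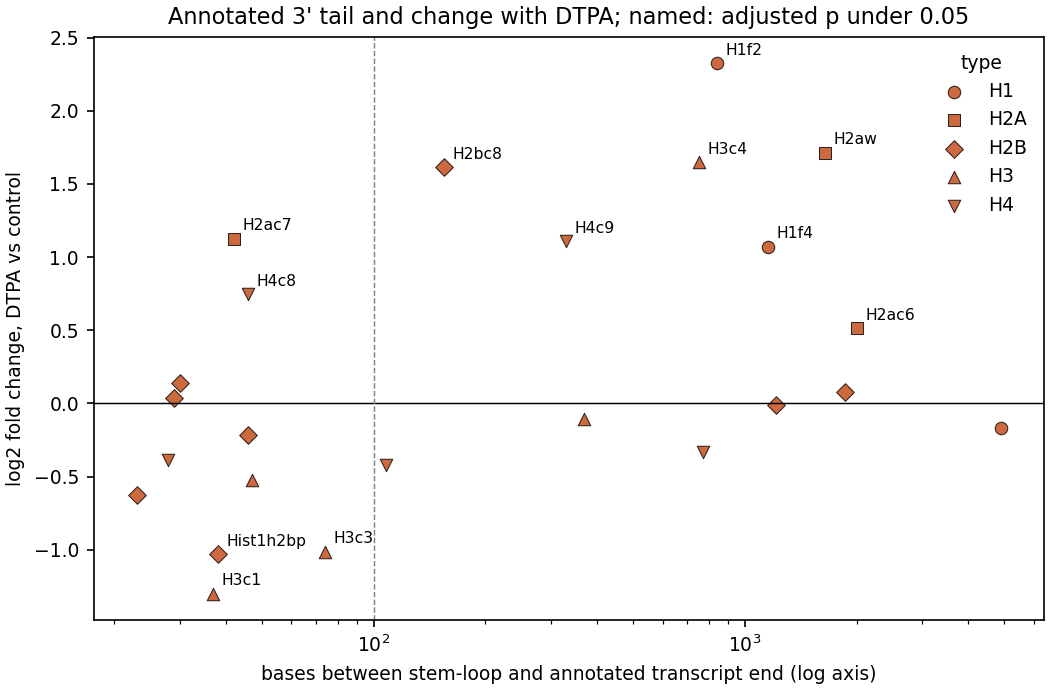
Bases between the stem-loop and the end of the annotated transcript (log axis) against the log2 fold change with DTPA, for the 24 tested genes with an annotated stem-loop, with the symbol set by histone type and the dashed line at 100 bases. The named genes passed the test: 7 rises lie right of the line, and 2 rises and 3 falls lie left of it.

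With SA, 5 of the 34 genes rose (14.7%) and 0 fell, against 15.4 percent of all tested genes called higher and 6.75 percent lower. Median-of-ratios scaling turned that background to 1107 genes higher and 1661 lower, in place of 1838 and 804, and called 3 of the 34 higher. At an unadjusted p under 0.05 the test gave 8 of the 34 in either direction, against 4057 of all 11917 tested genes. Limma's voom on the recovered reads also called 0 of the family lower. H2bc8 had a log2 fold change of 0.82 (SE 0.18, limma, adjusted p = 0.00815), and H4c9 of 0.58 (SE 0.09, limma, adjusted p = 0.00118). For H1f2 it was 0.38 (SE 0.05, limma, adjusted p = 0.00020), a mean of 92 ± 2.3 TPM with SA against 70.4 ± 4.66 TPM in control (SD, n = 3 each). These 3 calls held in all 21 alternatives. H2bc9 had 3.56, 3.09 and 3.46 TPM with SA, against 2.14, 2.35 and 1.7 TPM in control, without overlap, and a log2 fold change of 0.52 (SE 0.16, limma, adjusted p = 0.0395). H3c4 had a log2 fold change of 0.48 (SE 0.15, limma, adjusted p = 0.0445), and its SA and control libraries overlapped. The H2bc9 call was lost in 12 of 20 alternatives and the H3c4 call in 13 of 21, with adjusted p up to 0.130 and 0.149. The first was lost without any 1 of the SA or control libraries, without DTPA replicate 3 and without DFO replicate 2. The second was lost without any 1 DTPA library, DFO replicate 3, SA replicate 1 or 2, or control replicate 1 or 3. Without DTPA replicate 3, SA replicate 2 or control replicate 1, 3 genes were called higher in place of 5. Leaving out a library also added calls for genes that had none: H2aw without control replicate 3 (0.54, adjusted p = 0.0319), H2ac6 without SA replicate 1 (0.49, adjusted p = 0.0192) and Hist1h2al without SA replicate 3 (1.02, adjusted p = 0.0432). Each of the 5 genes has more than 100 bases after its stem-loop, as do 13 of the 34 tested. That split was chosen after the values were seen, and the H2bc9 and H3c4 calls were often lost. Genes with 100 bases or fewer averaged at most 1.90 TPM, where small changes are hard to call.

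With DFO, 0 of the 34 genes were called higher and 0 lower by limma on log2(TPM + 1), against 8.39 percent and 2.28 percent of all tested genes (1000 and 272, or 420 and 654 with median-of-ratios scaling). At an unadjusted p under 0.05 the test gave 2 of the 34, against 3025 of all 11917 tested genes. Voom on the recovered reads called 0 of the family. H1f2 averaged 67.6 ± 3.87 TPM with DFO and 70.4 ± 4.66 TPM in control (log2 fold change -0.06, SE 0.05, adjusted p = 0.525), and H2bc4 averaged 31 ± 1.88 TPM with DFO and 32.6 ± 3.3 TPM in control (SD, n = 3 each). Their libraries overlapped. The largest shift in a gene averaging at least 5 TPM was that of Hist1h2al, at 0.63 (SE 0.31, limma, adjusted p = 0.229).

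The treatments were also compared with one another. Between DTPA and DFO, 11 genes were higher and 2 lower with DTPA, against 19.6 percent and 46.4 percent of all tested genes (2330 and 5527, or 3732 and 3859 with median-of-ratios scaling). H1f2 differed by 2.38 (SE 0.05, limma, adjusted p = 3.40e-12) and Hist1h2al by 2.27 (SE 0.31, limma, adjusted p = 4.37e-05), and H3c1 (-0.91, adjusted p = 0.0126) and Hist1h2bp (-0.67, adjusted p = 0.0186) were lower with DTPA. The Hist1h2bp call was lost without DTPA replicate 3 (-0.48), DFO replicate 2 (-0.56) or DFO replicate 3 (-0.58), with adjusted p up to 0.0813, and without DFO replicate 2 only 1 gene was called lower.

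Between DTPA and SA, 8 genes were higher and 9 lower with DTPA, against 20.1 percent and 47.0 percent of all (2395 and 5598, or 3763 and 3932 with median-of-ratios scaling). One of the 9 is H1f3, which passed the filter only through the SA libraries, where it is high, so its call was favoured by the filter. Hist1h2al (2.17, SE 0.31) and H1f2 (1.94, SE 0.05) were the largest rises. The largest falls were H4c12, with 0, 0 and 0.399 TPM with DTPA and 1.87, 1.8 and 1.47 TPM with SA (-1.27, SE 0.41, limma, adjusted p = 0.0175), and Hist1h2bp, with 0.597, 0.875 and 0.176 TPM with DTPA and 2.27, 2.18 and 3.03 TPM with SA (-1.19, SE 0.22, limma, adjusted p = 0.000464). H4c12 has 312 bases of exons, so its values rest on few reads, and 71.5% of its 50-base stretches occur in another gene. It was not among the genes called lower by voom. The H4c12 call was lost without DTPA replicate 1 or 2 (-1.19 for each, adjusted p up to 0.0520). Without DTPA replicate 2, or without SA replicate 3, 5 genes were called lower.

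Between DFO and SA, 0 genes were called higher with DFO and 3 lower, against 7.22 percent and 6.3 percent of all. In either direction, 8 of the 34 had an unadjusted p under 0.05, against 3200 of all 11917 tested genes. Voom called 0 of the family higher. H4c9 (-0.58, SE 0.09, limma, adjusted p = 0.0022), H2bc6 (-0.55, SE 0.10, limma, adjusted p = 0.00477) and H1f2 (-0.44, SE 0.05, limma, adjusted p = 0.000144) were lower with DFO. Their DFO libraries lay below all SA libraries. H2bc6 had 2.12, 1.98 and 2.44 TPM with DFO, against 4.16, 3.18 and 3.65 TPM with SA.

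The genes that make, process and package histones were read from lists. Of 24 S phase genes, 24 fell with DTPA (median log2 fold change -1.72, against -0.11 over all tested genes). Among all tested genes, 42.1 percent were called lower with DTPA, 2.28 percent with DFO and 6.75 percent with SA. Rrm2, a subunit of ribonucleotide reductase, had 7.0, 6.56 and 5.97 TPM with DTPA and 106, 98.3 and 106 TPM in control libraries, and Mcm5, a subunit of the replicative helicase, had 8.94, 8.48 and 8.01 TPM with DTPA and 122, 115 and 121 TPM in control libraries. The log2 fold changes were -3.80 and -3.67 (limma, adjusted p = 1.36e-13 and 7.40e-14), and those of Mcm6 and Mcm3 were -3.02 and -2.75. With DFO 10 of the 24 fell and with SA 19, with medians of -0.17 and -0.24, but with median-of-ratios scaling 19 fell with DFO and 20 with SA, with medians of -0.22 and -0.29. H1f2 rose with DTPA and with SA, where 24 and 19 of these genes fell. It had no call with DFO, where 10 of them fell. With that scaling the falls were 19 with DFO and 20 with SA, so this difference in counts depended on the scaling. The part of the S phase genes in the histone values was not tested.

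Of 16 genes of histone mRNA transcription and processing, 2 rose and 12 fell with DTPA, at a median log2 fold change of -0.23 (2 and 8, at a median of -0.11, with median-of-ratios scaling). For this list and the next 3, the shares over all tested genes with DTPA were 23.5 percent higher and 42.1 percent lower. With DFO they were 8.39 percent higher and 2.28 percent lower, and with SA 15.4 percent and 6.75 percent. Slbp, which binds the stem-loop, had 30.4, 32 and 31.2 TPM with DTPA and 47.5, 46.1 and 48.2 TPM in control libraries, with a log2 fold change of -0.58 (SE 0.03, limma, adjusted p = 6.50e-09). Npat, the coactivator of replication-dependent histone transcription, fell by 0.29 on the log2 scale (SE 0.04, limma, adjusted p = 3.79e-05). With median-of-ratios scaling the log2 fold changes were smaller, at -0.46 for Slbp and -0.17 for Npat (limma, adjusted p = 8.41e-09 and 0.00103). Larger falls were those of Pou2f1, the octamer-binding factor, at -1.26, and of Zfp473, a zinc finger protein of the U7 processing complex, at -0.84. The cap-binding gene Ncbp1 fell by 0.58 on the log2 scale. In this list 1 gene rose with DFO and 1 with SA. With neither was a member called lower, and with each 2 members had an unadjusted p under 0.05 in either direction. Over all 11917 tested genes, 3025 with DFO and 4057 with SA had such a p. However, median-of-ratios scaling called 3 members of the list lower with DFO and 1 lower with SA. Of 12 genes of cleavage and polyadenylation, 2 rose and 8 fell with DTPA, at a median of -0.22 (4 and 6, at a median of -0.10, with that scaling). In the same list 1 gene rose with DFO and 4 with SA. Cstf2, a subunit of the cleavage stimulation factor, had 6.87, 7.26 and 6.67 TPM with DTPA and 13.6, 13.1 and 13.8 TPM in control libraries (log2 fold change -0.87, SE 0.05, limma, adjusted p = 1.27e-08). Cstf3 and Cpsf6 fell by 0.76 and 0.74 on the log2 scale, while the poly(A)-binding protein gene Pabpc1 rose by 0.59 with DTPA, 0.18 with DFO and 0.20 with SA (adjusted p = 1.84e-10, 0.000334 and 3.72e-05).

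Histone variant genes outside the clusters were mostly lower with DTPA. Most of them yield polyadenylated mRNA independently of replication, and H2ax yields a stem-loop form as well. Of 8 tested, 1 rose and 6 fell with DTPA, at a median of -0.43 (2 and 5, at a median of -0.31, with median-of-ratios scaling). With DFO 1 fell, and with SA 1 rose and 1 fell (1 and 2 with that scaling). H2az1, which encodes H2A.Z, had 352, 352 and 379 TPM with DTPA, 786, 786 and 772 TPM with DFO, 808, 796 and 820.4 TPM with SA and 821, 779 and 789.8 TPM in control, with the DTPA libraries below all others (log2 fold change -1.14, SE 0.03, limma, adjusted p = 2.21e-11). Cenpa, the centromeric H3, fell by 1.5 on the log2 scale, H2ax by 0.50 and H2az2 by 0.45 (limma, adjusted p = 1.46e-12, 8.53e-06 and 2.71e-06). H3f3b, encoding H3.3, averaged 295 ± 13.6 TPM with DTPA and 292 ± 8.13 TPM in control (SD, n = 3 each), with overlap and no call (adjusted p = 0.762), but median-of-ratios scaling called it higher (0.14, adjusted p = 0.0066). The linker variant H1f0 was listed at 0 in all 12 libraries. Of 20 histone chaperone genes, 1 rose and 17 fell with DTPA, at a median of -0.71 (2 and 15, at a median of -0.59, with that scaling). With DFO 1 fell, and with SA 3 rose and 4 fell (3 fell with DFO, and 1 rose and 6 fell with SA, with that scaling). Among the falls with DTPA, Hjurp, the chaperone of CENP-A, had 9.26, 9.39 and 8.66 TPM with DTPA and 52.9, 49.9 and 52.8 TPM in control libraries, and Asf1b had 12.9, 14.3 and 11.3 TPM with DTPA and 59, 55.3 and 56.4 TPM in control libraries. The log2 fold changes were -2.39 and -2.07, and those of Chaf1a and Anp32e -1.77 and -1.44 (limma, adjusted p = 6.52e-13, 1.56e-10, 3.93e-10 and 6.55e-12).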

How the data were processed

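RNA from 12 libraries (3 for each of DTPA, DFO, SA and control) was analysed. Groups came from the sample titles. The submitters' processing notes name HISAT2 2.1.0 and featureCounts, besides Trimmomatic 0.33, FastQC and edgeR, and build mm10. Their settings, and the release of the annotation, are not given in the sources used. For each library the authors deposited TPM values in 1 table of 55487 rows. For 114 symbols on 234 rows, the row with the highest mean was kept.

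The 11917 genes that reached 1 TPM in 3 or more libraries were tested on the log2(TPM + 1) scale. Limma 3.58.1 (R 4.3.3) fitted the 12 libraries together, with a mean for each group and a mean-variance trend, and Benjamini-Hochberg adjustment ran over all tested genes, at 0.05. The pseudocount understates changes of low genes. Ratios given as times control are of mean TPM. TPM multiplied by the M21 exon length fell on whole reads, within 0.1 read for 98.8% to 99.0% of values up to 200 reads, which gave the depths and the reads used by voom, an alternative chosen after seeing the data. Python 3.11.15 with pandas 2.3.3, numpy 2.4.6 and scipy 1.17.1 made the tables, and matplotlib 3.10.9 the plots.

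The family and the gene lists were chosen with earlier results of these data known. One megakaryocyte marker of the original list is not reported here. Named were up to 5 genes per type by level (mean of at least 1 TPM), up to 4 called rises and falls per comparison with control, 2 between treatments, up to 4 called genes per list, and always Slbp, Npat, H2az1, H3f3b and H1f0; other members were named after their values were seen. The alternatives changed the pseudocount (0.1 or 5), the filter (none, or 5 TPM) and the scaling (median of ratios, or trimmed mean), fitted just the 6 libraries of a comparison, added the replicate number as a block, or left out each library in turn. Stem-loops and hexamers were searched in GENCODE M21 transcripts (GRCm38), and promoters come from RefSeq (GRCm38.p6).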

Additional observations from a re-analysis of the deposited data

How the results depend on the processing

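Of the recomputed counts and sums, 235 moved by less than 1.5 times or 1 SD and 25 by more, and no named log2 fold change that was called changed sign. The filter of 5 TPM, which tests fewer genes, left 7 higher and 0 lower with DTPA against control, 7 and 0 against DFO, and 0 lower against SA. With no filter, SA against control had 3 higher and DTPA against DFO 4 lower. Median-of-ratios and trimmed-mean scaling each gave 3 higher with SA. Their summed levels were 596 and 598 TPM with DTPA, 162 and 162 TPM with DFO, and 208 and 207 TPM with SA. A fit of only the 6 libraries gave 1 lower for DTPA against DFO. Voom on the recovered reads, with 17 members tested, gave 1 lower for DTPA against control, 1 against DFO and 5 against SA; the 9 genes it called higher with DTPA against control were all among the 12. Leaving out 1 library at a time gave 9 to 12 higher and 3 to 4 lower for DTPA against control, 3 to 5 higher for SA against control, 10 to 13 higher and 1 to 3 lower for DTPA against DFO, 8 to 9 higher and 5 to 9 lower for DTPA against SA, and 3 to 4 lower for DFO against SA. The replicate numbers did not pair the libraries (correlations between -0.043 and 0.054), and the replicate block gave 11 higher and 3 lower with DTPA and 4 higher with SA, and lost H2bc9 with SA (adjusted p = 0.0534). Where a cause is not named here, the cause was not tested. Genes near 1 TPM rest on few reads, which limits the 3 falls with DTPA.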
